A study of Homo sapiens with 10 samples.

Results

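The genes described are 10 genes of the cellular stress response: ATF4, ATF3, ATF5, DDIT3 (which encodes CHOP), CEBPB, CEBPG, TRIB3, NUPR1, CHAC1 and FGF21. They were chosen with earlier results of these data known and matched by symbol, and each was listed once among the 25593 entries per library. TRIB3, CHAC1 and FGF21 encode a pseudokinase, an enzyme and a hormone, so for them the heading of stress transcription factors covers targets and effectors of the pathway. RNA was sequenced from descendants of the human osteosarcoma line U2OS after 96 h of transfection with an siRNA against SET or with a control siRNA. SET encodes a chaperone for histones that also inhibits the phosphatase PP2A. The groups were a line labelled p53 KO with SET siRNA (n = 2) or with control siRNA (n = 2), and a line transfected with a control CRISPR construct and labelled p53 WT with SET siRNA (n = 3) or with control siRNA (n = 3). Per the series' design text both lines were obtained by selecting and identifying clones, so p53 status and other differences between these lines cannot be told apart. That text describes a p53 knockout but gives SET as what the CRISPR construct was aimed at, and the sample labels were followed. Whether 1 siRNA or a pool was used is not given in the sources used here. The labels say biological replicates without saying what was replicated, and each p-value refers to library-to-library spread, which may be technical.

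The integrated stress response joins several alarms into one pathway. The kinases PERK, GCN2, HRI and PKR each phosphorylate the translation factor eIF2 on its alpha subunit, which slows protein synthesis while upstream open reading frames in the ATF4 messenger RNA let ATF4 protein be made. ATF4 pairs with C/EBP proteins and other basic leucine zipper (bZIP) factors on composite DNA elements and turns on genes for amino acid supply, for CHOP, and for the feedback phosphatase subunit GADD34. Because ATF4 and CHOP are controlled in translation too, the values below are RNA levels and are no measure of the proteins.

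Promoters with a match to the composite element are shown because ATF4 and C/EBP proteins, encoded by genes of this list, bind that element. RefSeq (GRCh38.p14) gave 18 windows of 300 bases, from 250 before to 50 after an annotated transcript start, for 9 of the 10 genes, and NUPR1 was not matched. The letters TGATGNAA of the ATF4-C/EBP composite element were found on either strand in 4 of these 18 windows, 1 each for ATF3, CHAC1, CEBPG and FGF21, and in 1270 of all 35116 windows (3.62%). The 250 bases before the start in these 4 windows follow, all on the plus strand at chr1:212565157-212565406 (ATF3), chr15:40953221-40953470 (CHAC1), chr19:33373863-33374112 (CEBPG) and chr19:48755274-48755523 (FGF21), with the match in capitals.
ATF3: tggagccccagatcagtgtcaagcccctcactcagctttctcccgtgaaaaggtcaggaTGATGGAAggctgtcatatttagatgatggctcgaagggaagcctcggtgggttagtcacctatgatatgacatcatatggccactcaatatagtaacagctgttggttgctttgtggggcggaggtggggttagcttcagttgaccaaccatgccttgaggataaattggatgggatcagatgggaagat
CHAC1: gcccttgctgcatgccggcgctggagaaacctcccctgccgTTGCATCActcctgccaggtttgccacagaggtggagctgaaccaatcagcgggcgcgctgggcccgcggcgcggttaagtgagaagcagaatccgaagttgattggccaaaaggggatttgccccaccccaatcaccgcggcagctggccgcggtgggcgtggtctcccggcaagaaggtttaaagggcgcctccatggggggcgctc
CEBPG: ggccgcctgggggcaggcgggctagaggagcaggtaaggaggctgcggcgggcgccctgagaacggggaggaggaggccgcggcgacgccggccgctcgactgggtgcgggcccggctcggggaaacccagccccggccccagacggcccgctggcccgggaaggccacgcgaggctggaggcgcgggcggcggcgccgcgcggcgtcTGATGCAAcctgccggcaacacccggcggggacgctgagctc
FGF21: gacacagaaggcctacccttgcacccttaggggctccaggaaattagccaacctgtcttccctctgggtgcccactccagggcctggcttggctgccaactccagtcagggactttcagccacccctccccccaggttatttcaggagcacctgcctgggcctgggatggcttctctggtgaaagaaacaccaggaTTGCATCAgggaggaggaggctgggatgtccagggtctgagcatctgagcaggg
In ATF3 and CEBPG the match was on the gene's own strand, at bases -191 to -184 and -42 to -35 from the start. In CHAC1 and FGF21 it was on the opposite strand, at bases -209 to -202 and -54 to -47, and so reads TTGCATCA in the printed strand. The cAMP response element TGACGTCA was in 1.85% of all windows and the ER stress element, searched by its consensus of 19 letters, in 0.0769%, and neither was in any of the 18 windows, so no matches overlapped. A match is a description of letters, and its absence says only that these letters are not in that window. These positions are RefSeq's, and the files' own coordinates given below are of a build that the sources do not name.

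**Figure D1:**
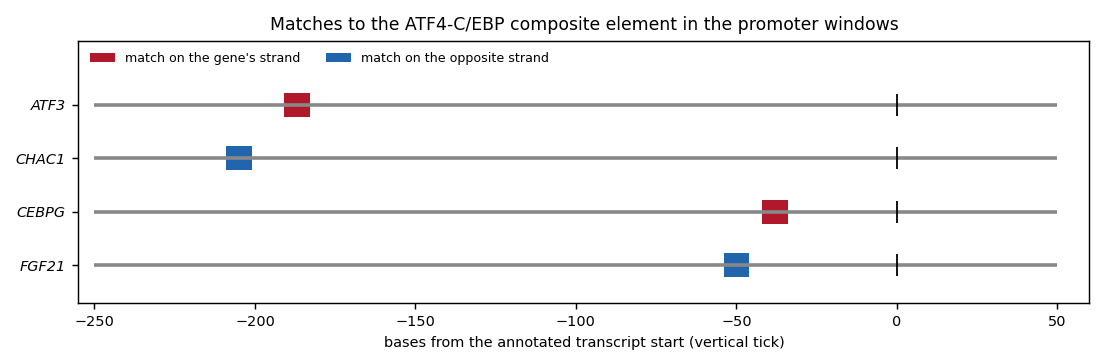
Position of the composite element match in the promoter windows of ATF3, CHAC1, CEBPG and FGF21, in bases from the annotated transcript start (vertical tick), with red for the gene's strand and blue for the opposite strand. The matches of CEBPG and FGF21 lay within 54 bases of the start, and those of ATF3 and CHAC1 between bases -209 and -184.

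Values are FPKM, fragments scaled to transcript length and to the number of mapped fragments, as the authors deposited them. Between 13804 and 14153 genes per library reached 1 FPKM. SET averaged 14.9 FPKM with SET siRNA and 164 FPKM with control siRNA in KO-labelled cells, and 12.5 and 124 FPKM in WT-labelled cells. CDKN1A, a p53 target, averaged 19.4 FPKM with SET siRNA and 6.67 FPKM with control siRNA in KO-labelled cells, and 720.3 and 162 FPKM in WT-labelled cells. MDM2, another p53 target, averaged 16.6 and 14.4 FPKM in KO-labelled cells and 204 and 40.9 FPKM in WT-labelled cells. The messenger RNA of the edited gene is not analysed here, and an FPKM for a whole gene does not test a CRISPR edit. Of the 10 mesenchymal and osteoblast markers 8 had a median of at least 1 FPKM, with TWIST1 and COL1A2 near 0, and no marker of 6 for blood or of 5 for endothelium did. Among 6 epithelial markers 4 did, and the sum over the 6 was 277 to 281 FPKM with SET siRNA and 288 to 327 FPKM with control siRNA in KO-labelled libraries, against 500.1 to 512 FPKM and 665 to 700 FPKM in WT-labelled libraries. The sum over the 10 mesenchymal and osteoblast markers was 1492 to 1629 FPKM with SET siRNA and 2017 to 2143 FPKM with control siRNA in KO-labelled libraries, and 1205 to 1325 FPKM and 1927 to 1972 FPKM in WT-labelled libraries. It was thus lower with SET siRNA in both lines, and the part of these marker sums in the results below was not tested. In such bulk samples a change in every cell and a change in the share of expressing cells cannot be told apart.

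With SET siRNA 8 of the 10 genes rose in KO-labelled cells and 10 in WT-labelled cells (limma on log2(FPKM + 1), adjusted p below 0.05), and 0 of the 10 fell in either line. Of all 14813 genes tested, 37.6% were called in KO-labelled cells and 54.8% in WT-labelled cells, with 19.8% and 30.8% called higher and 17.9% and 24.0% called lower. The median log2 change of the 10 genes was 0.82 in KO-labelled cells, where that of all tested genes was 0.02, and 0.99 in WT-labelled cells, where that of all tested genes was 0.04. Every SET siRNA library lay above every control siRNA library for 9 of the 10 genes in KO-labelled cells and for 10 in WT-labelled cells, against 36.0% and 35.7% of all tested genes. No gene of the 10 had every SET siRNA library below every control library, against 31.4% and 28.6% of all tested genes. The 2 comparisons share no libraries, but both took their spread from 1 fit over all 10 libraries. In the fit on the compared libraries alone, 7 of the 10 genes rose in KO-labelled cells. There 3202 of all tested genes were called in either direction. Since the 10 genes were chosen with earlier results of these data known, their counts beside those shares are a description and no test. All 10 genes passed the filter on low values, and all 100 values of these genes carried the status OK.

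ATF4, the transcription factor at the centre of the response (chromosome 22, 39916569 to 39918691 in the files' coordinates), was the most abundant of the 10. ATF4 had 682 and 726 FPKM in the KO-labelled libraries with SET siRNA, against 421 and 409.7 FPKM with control siRNA. WT-labelled libraries held 679.8, 702 and 692 FPKM of ATF4 with SET siRNA, against 358, 371 and 375 FPKM with control siRNA. In both lines the SET siRNA libraries stood clear of the control libraries, and ATF4 exceeded 98.8 to 99.4% of tested genes in each group. Its fold was 1.70 in KO-labelled and 1.88 in WT-labelled cells. The log2 changes were 0.76 ± 0.0492 (SE, limma adjusted p = 1.13e-05) and 0.91 ± 0.0402 (limma adjusted p = 5.20e-07).

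DDIT3 encodes CHOP, a C/EBP family member that ATF4 induces and that promotes cell death under lasting stress (chromosome 12, 57910371 to 57914300). DDIT3 had 94.5 and 94.9 FPKM in KO-labelled cells with SET siRNA, against 38.3 and 39.7 FPKM with control siRNA. WT-labelled cells held 73.3, 76.6 and 67.2 FPKM of DDIT3 with SET siRNA, against 23.8, 21.8 and 21.9 FPKM with control siRNA. The groups were far apart in both lines, by 2.43-fold in KO-labelled and 3.22-fold in WT-labelled cells. The log2 changes were 1.26 ± 0.0672 (limma adjusted p = 4.99e-06) and 1.64 ± 0.0548 (limma adjusted p = 1.36e-07). In the files' coordinates DDIT3 shares 68 bases with MARS, a tRNA charging gene at 126 to 177 FPKM, whose own log2 changes were 0.41 in KO-labelled and 0.40 in WT-labelled cells. Whether the counting used strand is not stated in these sources, and the part of those shared bases was not tested.

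ATF3 encodes a stress-induced bZIP factor that can repress or activate its targets and is known as a target of both ATF4 and p53 (chromosome 1, 212738697 to 212794117). ATF3 had 20.1 and 22.2 FPKM in KO-labelled cells with SET siRNA, against 7.39 and 7.42 FPKM with control siRNA. WT-labelled cells held 51.1, 53.4 and 51.4 FPKM of ATF3 with SET siRNA, against 8.53, 9.97 and 9.41 FPKM with control siRNA. ATF3 had the largest rise of the 10 genes in both lines, 2.85-fold in KO-labelled and 5.59-fold in WT-labelled cells, with log2 changes of 1.40 ± 0.0727 (limma adjusted p = 4.51e-06) and 2.37 ± 0.0593 (limma adjusted p = 4.73e-08). In WT-labelled cells it ranked 31 of 14813 from the highest log2 change. NUPR1 ranked 70, DDIT3 ranked 75 and CHAC1 ranked 78.

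ATF5, a close relative of ATF4 that takes part in mitochondrial stress signalling, was the 1 gene of the 10 whose fold was larger in KO-labelled than in WT-labelled cells (chromosome 19, 50431959 to 50437193). ATF5 had 30.4 and 32.2 FPKM in KO-labelled cells with SET siRNA, against 18.9 and 15.9 FPKM with control siRNA. WT-labelled cells held 24.1, 24.5 and 24.8 FPKM of ATF5 with SET siRNA, against 19.2, 18.0 and 16.9 FPKM with control siRNA. The folds were 1.795 and 1.36, and the log2 changes 0.81 ± 0.0826 (limma adjusted p = 0.000117) and 0.42 (limma adjusted p = 0.000661). The ATF5 entry shares 1030 bases with NUP62, a nuclear pore gene at 32.5 to 54.3 FPKM. NUP62 itself changed by 0.10 on the log2 scale in KO-labelled cells (limma adjusted p = 0.334) and by -0.42 in WT-labelled cells (limma adjusted p = 0.000384), a difference between lines of 0.51 (limma adjusted p = 0.00843) in the same direction as that of ATF5. The part of the shared bases in the ATF5 values was not tested.

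CEBPB and CEBPG encode C/EBP proteins, which can pair with ATF4, and they had the smallest log2 changes among the bZIP genes of the list in both lines. CEBPB (chromosome 20, 48807376 to 48809212) had 49.5 and 52.97 FPKM in KO-labelled cells with SET siRNA, against 43.8 and 36.3 FPKM with control siRNA, and its log2 change of 0.35 ± 0.126 was not called (limma adjusted p = 0.0526). In WT-labelled cells CEBPB had 39.6, 43.0 and 46.6 FPKM with SET siRNA, against 38.2, 31.4 and 29.9 FPKM with control siRNA, and rose by a log2 change of 0.37 (limma adjusted p = 0.0126). The KO change was called without the first KO-labelled control library (0.49, limma adjusted p = 0.0267), and without the first or the third WT-labelled control library, which enter its estimate of spread alone (limma adjusted p = 0.0255 and 0.0483). CEBPG (chromosome 19, 33864609 to 33873592) had 31.1 and 33.1 FPKM in KO-labelled cells with SET siRNA, against 24.5 and 28.7 FPKM with control siRNA, a log2 change of 0.27 ± 0.0764 (limma adjusted p = 0.0221). That call was lost in the fit on the compared libraries alone (limma adjusted p = 0.106) and rested on few libraries: without the first KO-labelled control library the change was 0.16 (limma adjusted p = 0.0998), and without the first or the second KO-labelled SET siRNA library it was not called either (limma adjusted p = 0.0507 and 0.126). WT-labelled cells held 24.6, 23.7 and 22.7 FPKM of CEBPG with SET siRNA, against 18.0, 19.3 and 18.8 FPKM with control siRNA, a log2 change of 0.32 (limma adjusted p = 0.00191).

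Among the targets and effectors, TRIB3, a pseudokinase that binds ATF4 and CHOP and restrains them, rose by nearly the same factor in both lines (chromosome 20, 361308 to 378203). TRIB3 had 83.4 and 79.0 FPKM in KO-labelled cells with SET siRNA, against 42.3 and 39.3 FPKM with control siRNA, 1.99-fold. In WT-labelled cells TRIB3 had 44.7, 43.8 and 47.1 FPKM with SET siRNA, against 22.1, 20.8 and 20.3 FPKM with control siRNA, 2.15-fold. The control siRNA level of the KO-labelled line was thus close to the SET siRNA level of the WT-labelled line. Its log2 changes were 0.97 ± 0.0614 (limma adjusted p = 9.85e-06) and 1.07 (limma adjusted p = 6.81e-07).

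NUPR1, a small chromatin-associated protein induced by stress, was the second most abundant of the 10 in each group (chromosome 16, 28548662 to 28550495). NUPR1 had 171 and 179 FPKM in KO-labelled cells with SET siRNA, against 75.4 and 73.1 FPKM with control siRNA. WT-labelled cells held 188, 185 and 195 FPKM of NUPR1 with SET siRNA, against 56.6, 58.0 and 57.4 FPKM with control siRNA. The folds were 2.36 in KO-labelled and 3.31 in WT-labelled cells, with log2 changes of 1.23 ± 0.046 (limma adjusted p = 1.47e-06) and 1.71 ± 0.0375 (limma adjusted p = 1.87e-08).

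CHAC1 encodes an enzyme that breaks down glutathione and is induced through ATF4 (chromosome 15, 41245636 to 41248717). CHAC1 had 23.0 and 23.0 FPKM in KO-labelled cells with SET siRNA, against 14.0 and 11.3 FPKM with control siRNA. In WT-labelled cells it had 26.3, 28.7 and 28.6 FPKM with SET siRNA, against 8.74, 8.74 and 8.18 FPKM with control siRNA. The folds were 1.82 and 3.26, with log2 changes of 0.82 ± 0.0892 (limma adjusted p = 0.000172) and 1.59 (limma adjusted p = 6.26e-07).

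FGF21, a secreted hormone that ATF4 induces in liver and muscle, was the least abundant of the 10 in WT-labelled cells (chromosome 19, 49259344 to 49261582). FGF21 had 8.20 and 9.89 FPKM in KO-labelled cells with SET siRNA, against 8.33 and 8.12 FPKM with control siRNA. Those groups overlapped, and the log2 change of 0.12 ± 0.145 was not called (limma adjusted p = 0.555). WT-labelled cells held 2.24, 2.18 and 1.49 FPKM of FGF21 with SET siRNA, against 1.41, 1.04 and 1.04 FPKM with control siRNA, a log2 change of 0.45 (limma adjusted p = 0.0101). The authors' interval for FGF21 reached 16.6 to 63.2% of its value on either side, against 1.44 to 2.48% for ATF4 and 5.19 to 13.2% for DDIT3. The log2(FPKM + 1) scale understates the change of a gene this low.

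**Figure D2:**
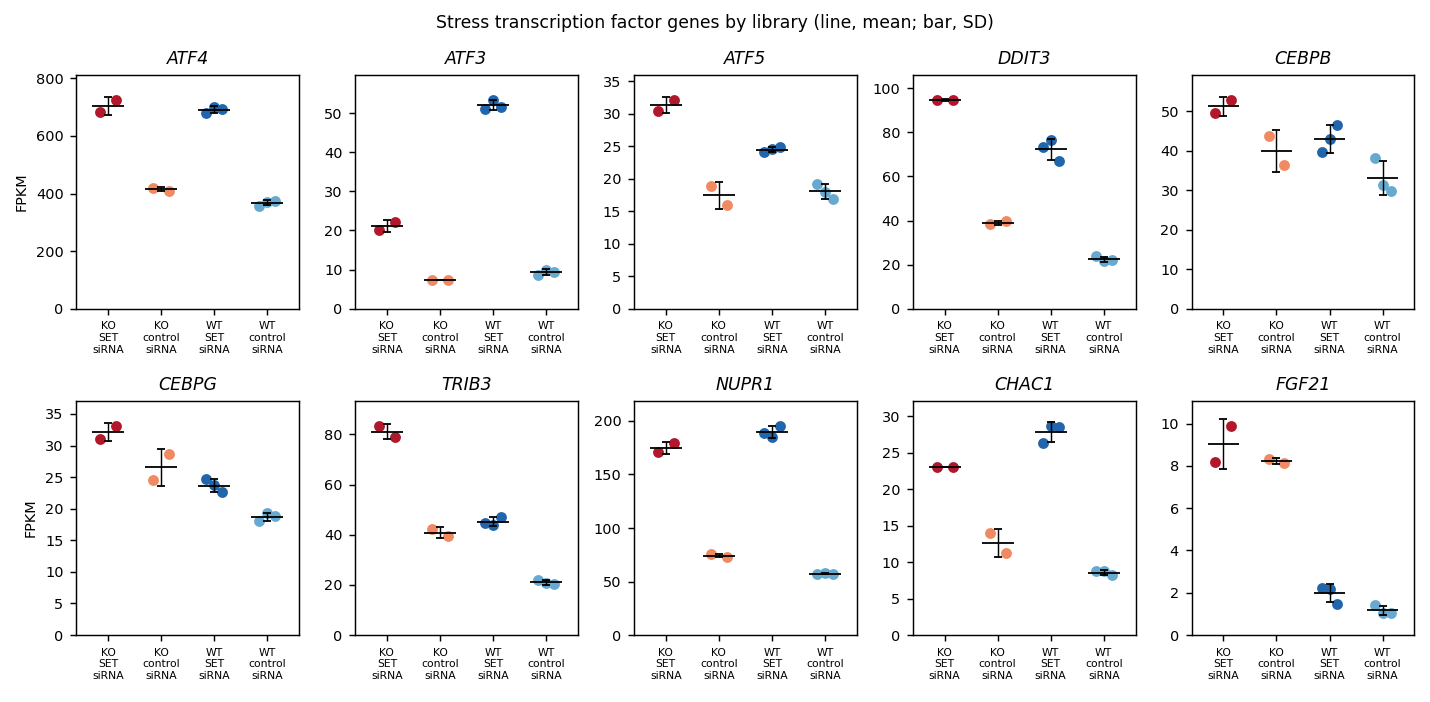
FPKM of each of the 10 genes in every library, with the KO-labelled line at the left of each panel and SET siRNA left of control siRNA. Points are libraries, the line is the group mean and the bar the SD (n = 2 in KO-labelled and 3 in WT-labelled groups). SET siRNA libraries lay above their control libraries everywhere except for FGF21 in KO-labelled cells.

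For 5 of the 10 genes the effect of SET siRNA was not the same in both lines, where 19.1% of all tested genes were called for this difference. With 1 library left out the count was 3 to 5 of the 10 genes, and 1143 to 4589 of all tested genes against 2831 with all libraries. The log2 change was lower in KO-labelled than in WT-labelled cells for ATF3, CHAC1, NUPR1 and DDIT3 and higher for ATF5, where 10.5% and 8.6% of all tested genes were called. ATF3 had the largest difference, -0.97 ± 0.0938 on the log2 scale (limma adjusted p = 0.000435), followed by CHAC1 with -0.77 ± 0.115 (limma adjusted p = 0.00313) and NUPR1 with -0.48 ± 0.0593 (limma adjusted p = 0.00139). These 3 were called under all 18 alternatives. DDIT3 differed by -0.38 ± 0.0867 (limma adjusted p = 0.0172), but not without the second KO-labelled control library (-0.36, limma adjusted p = 0.0533) or without the first or the second KO-labelled SET siRNA library (limma adjusted p = 0.0677 and 0.0577). ATF5 differed by 0.39 ± 0.107 (limma adjusted p = 0.0331), and that call was lost when any 1 library other than the third WT-labelled or the first KO-labelled control library was left out (limma adjusted p = 0.0509 to 0.108) and with no filter on low values (0.0519).

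The other 5 genes did not pass this test. The difference was -0.15 for ATF4 (limma adjusted p = 0.127), -0.09 for TRIB3 (limma adjusted p = 0.432), -0.02 for CEBPB (limma adjusted p = 0.942), -0.06 for CEBPG (limma adjusted p = 0.711) and -0.33 for FGF21 (limma adjusted p = 0.231). The ATF4 difference was called under quantile normalization (-0.22, limma adjusted p = 0.0452). With SET siRNA ATF4 RNA averaged 704 ± 31.3 FPKM in KO-labelled cells (SD, n = 2) and 691 ± 10.9 FPKM in WT-labelled cells (SD, n = 3), and TRIB3 81.2 ± 3.15 and 45.2 ± 1.73 FPKM. The size of a response also depended on its scale. SET siRNA added 55.7 FPKM of DDIT3 in KO-labelled cells and 49.8 FPKM in WT-labelled cells, although the fold was smaller in KO-labelled cells, where the control level was higher. For ATF3 the added amount, 13.7 FPKM in KO-labelled and 42.7 FPKM in WT-labelled cells, went the same way as the fold, as it did for CHAC1 (10.4 and 19.3 FPKM) and NUPR1 (101 and 132 FPKM). For TRIB3 the added amounts were 40.4 and 24.1 FPKM beside nearly equal folds. Differences in added FPKM were not tested.

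Between the lines, 8 of the 10 genes differed with SET siRNA, where 48.4% of all tested genes were called, and 8 differed with control siRNA, where 47.9% were. With SET siRNA 5 genes were higher in KO-labelled cells and 3 lower, against 23.6% and 24.8% of all tested genes. With control siRNA 7 were higher and 1 lower, against 25.7% and 22.2%. The median log2 difference of the 10 genes, KO-labelled over WT-labelled, was 0.30 with SET siRNA and 0.42 with control siRNA, and the all-gene medians were near 0 and 0.02. With SET siRNA every KO-labelled library lay above every WT-labelled library for 6 genes and below for 3, against 34.7% and 35.4% of all tested genes, and with control siRNA for 7 and 1, against 34.3% and 28.8%. Both comparisons share their libraries with the siRNA comparisons above.

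FGF21 differed most between the lines. It averaged 9.05 ± 1.19 FPKM in KO-labelled cells and 1.97 ± 0.420 FPKM in WT-labelled cells with SET siRNA, and 8.22 ± 0.154 and 1.17 ± 0.216 FPKM with control siRNA (SD, n = 2 and 3). The log2 differences of 1.76 (limma adjusted p = 7.77e-06) and 2.10 (limma adjusted p = 4.58e-06) ranked 42 and 28 from the highest of all tested genes. Its differences between the lines were several times its changes with SET siRNA. TRIB3 was 1.797-fold higher in KO-labelled cells with SET siRNA and 1.94-fold higher with control siRNA, with log2 differences of 0.83 (limma adjusted p = 4.01e-06) and 0.92 (limma adjusted p = 3.70e-06). DDIT3 was 1.31-fold higher with SET siRNA (0.39, limma adjusted p = 0.000732) and 1.73-fold higher with control siRNA (0.77, limma adjusted p = 1.81e-05). CEBPG was higher in KO-labelled cells under both siRNAs as well, by 1.36-fold and 1.42-fold (limma adjusted p = 0.000894 and 0.000567).

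ATF3 went the other way. It was lower in KO-labelled than in WT-labelled cells with SET siRNA, 21.1 ± 1.43 against 52.0 ± 1.24 FPKM (log2 difference -1.26, limma adjusted p = 8.74e-07), and with control siRNA, 7.41 ± 0.0172 against 9.30 ± 0.727 FPKM (-0.29, limma adjusted p = 0.00618). CHAC1 and NUPR1 changed sides with the siRNA. CHAC1 was lower in KO-labelled cells with SET siRNA (-0.26, limma adjusted p = 0.024) and higher with control siRNA (0.51, limma adjusted p = 0.001). NUPR1 was lower with SET siRNA by 0.923-fold (-0.11, limma adjusted p = 0.048) and higher with control siRNA by 1.29-fold (0.37, limma adjusted p = 0.000147). Both SET siRNA differences were fragile: that of NUPR1 was lost under 14 of 19 alternatives (limma adjusted p = 0.0544 to 0.285) and that of CHAC1 without the second or the third WT-labelled or either KO-labelled SET siRNA library (limma adjusted p = 0.064 to 0.099). ATF5 was higher in KO-labelled cells with SET siRNA (0.34, limma adjusted p = 0.00467) and overlapped between lines with control siRNA (-0.05, limma adjusted p = 0.605). ATF4 overlapped between lines with SET siRNA (0.03, limma adjusted p = 0.672) and was 1.13-fold higher in KO-labelled cells with control siRNA (0.17, limma adjusted p = 0.0113), a call lost when the fit held the control siRNA libraries alone (limma adjusted p = 0.0518). CEBPB was not called with either siRNA (0.25, limma adjusted p = 0.103, and 0.27, limma adjusted p = 0.0814). It was called with SET siRNA in the fit on the compared libraries alone (limma adjusted p = 0.0305) and with array weights (0.0344), and with control siRNA without the first WT-labelled or the second KO-labelled control library (0.02 and 0.0498).

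**Figure D3:**
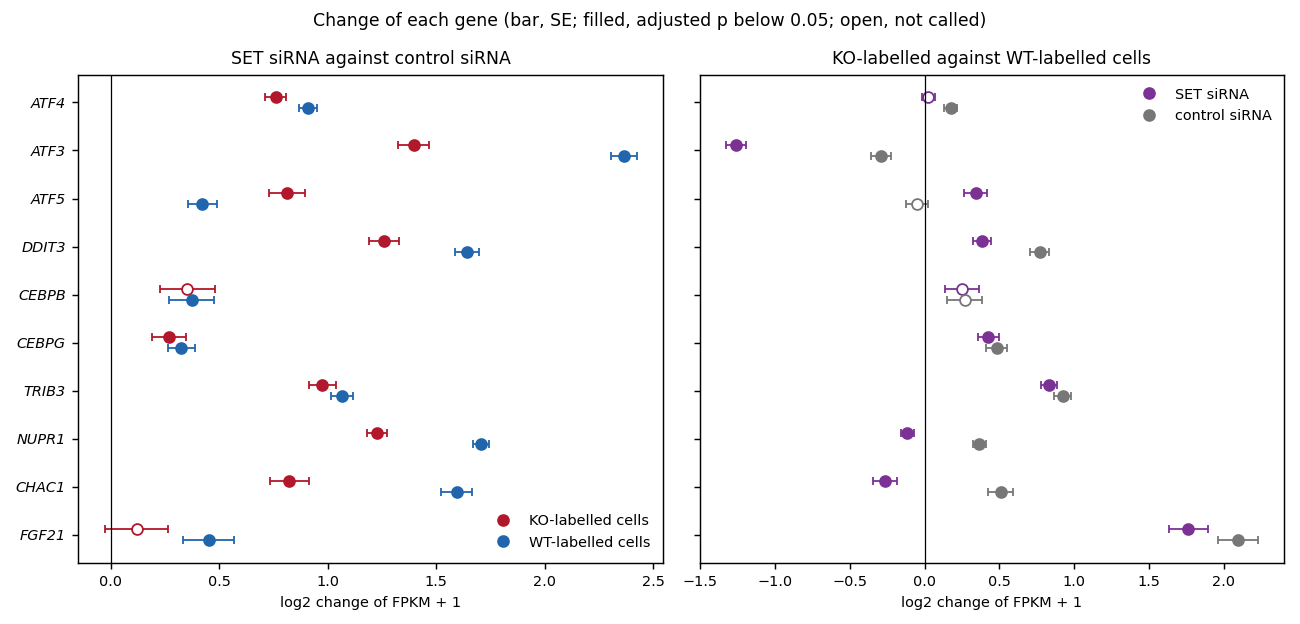
Log2 change of FPKM + 1 for each gene, with SET siRNA over control siRNA at the left and KO-labelled over WT-labelled cells at the right. Points are limma estimates, bars the SE, and open points missed an adjusted p of 0.05. ATF3 lay at -1.26 between lines with SET siRNA, and FGF21 at 1.76 and 2.10.

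The surrounding pathway was described with lists of other genes. Among 19 genes for eIF2alpha kinases, eIF2 subunits and their regulators, SET siRNA raised 4 and lowered 2 in KO-labelled cells, and raised 8 and lowered 2 in WT-labelled cells, with median log2 changes of 0.05 and 0.12. Of all tested genes 19.8% were higher and 17.9% lower in KO-labelled cells, and 30.8% higher and 24.0% lower in WT-labelled cells, so the KO count of rises was near the share of all genes. The count of rises in KO-labelled cells was 1 to 5 under the alternatives, with 1 in the fit on the compared libraries alone. The latter fit called fewer of all tested genes too, 3202 in either direction against 5571 in the fit on all libraries. PPP1R15A, which encodes GADD34 and reverses eIF2alpha phosphorylation, had the largest change of the list in both lines, and is also in the list of other targets described further on. It averaged 84.8 ± 1.01 FPKM with SET siRNA and 29.0 ± 0.642 FPKM with control siRNA in KO-labelled cells, and 83.5 ± 4.32 and 23.8 ± 1.05 FPKM in WT-labelled cells. The log2 changes were 1.51 (limma adjusted p = 1.91e-06) and 1.77 (limma adjusted p = 6.88e-08), and their difference missed the threshold at -0.25 (limma adjusted p = 0.0501). EIF2AK3, the gene of PERK, rose in WT-labelled cells (0.68, limma adjusted p = 0.000208), and its change in KO-labelled cells was 0.13 (limma adjusted p = 0.384).

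Most of the listed transporters and tRNA charging genes rose in both lines, and amino acid synthesis genes were divided in KO-labelled cells. Of 14 amino acid synthesis genes, KO-labelled cells showed 7 rises and 1 fall and WT-labelled cells 10 rises, of 11 transporters 8 rose in each line, and of 13 tRNA charging genes 11 rose in each line, where 19.8% of all tested genes rose in KO-labelled and 30.8% in WT-labelled cells. The median log2 changes of the 3 lists were 0.20, 0.37 and 0.41 in KO-labelled cells and 0.34, 0.38 and 0.49 in WT-labelled cells, beside 0.02 and 0.04 for all tested genes. In the fit on the compared libraries alone, 5 transporters and 7 tRNA charging genes rose in KO-labelled cells. That fit called 3202 of the 14813 tested genes in either direction, against 5571 in the fit on all libraries, and 49.81% of the 3202 calls were rises. ASNS, asparagine synthetase, averaged 169.5 ± 5.17 FPKM with SET siRNA and 102 ± 6.40 FPKM with control siRNA in KO-labelled cells, and 205 ± 3.25 and 72.1 ± 3.32 FPKM in WT-labelled cells. CARS, the cysteine tRNA charging enzyme, had the largest rise of its list in both lines, 0.66 and 0.83.

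The difference in response between lines was uneven across these lists. It was lower in KO-labelled cells for 6 of the 14 amino acid synthesis genes, for 1 transporter and for 3 tRNA charging genes, and higher for 1 transporter, where 10.5% of all tested genes were lower and 8.6% higher. The transporter counts were near those shares. The tRNA charging count fell without the first KO-labelled SET siRNA library and grew without the first KO-labelled control library. The number called over all tested genes moved the same way in both fits. CTH, which makes cysteine, averaged 15.4 ± 0.110 FPKM with SET siRNA and 13.7 ± 1.46 FPKM with control siRNA in KO-labelled cells, and 12.1 ± 0.269 and 5.04 ± 0.108 FPKM in WT-labelled cells. SLC7A11, the cystine importer, averaged 36.0 ± 2.26 and 31.6 ± 3.81 FPKM in KO-labelled cells and 36.1 ± 1.54 and 19.0 ± 0.828 FPKM in WT-labelled cells. Both genes had a high control level in the KO-labelled line and a change with SET siRNA there that was not called (0.16, limma adjusted p = 0.106, and 0.19, limma adjusted p = 0.109). CTH differed in response by -0.96 (limma adjusted p = 0.000353), ASNS by -0.76 (limma adjusted p = 0.000495), SLC7A11 by -0.70 (limma adjusted p = 0.00369) and the mitochondrial folate enzyme gene ALDH1L2 by -0.60 (limma adjusted p = 0.00713). SLC7A5, an importer of large neutral amino acids, went the other way with 0.43 (limma adjusted p = 0.0281), a call kept without the third WT-labelled control, the third WT-labelled SET siRNA or the first KO-labelled control library and lost without any other library.

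**Figure D4:**
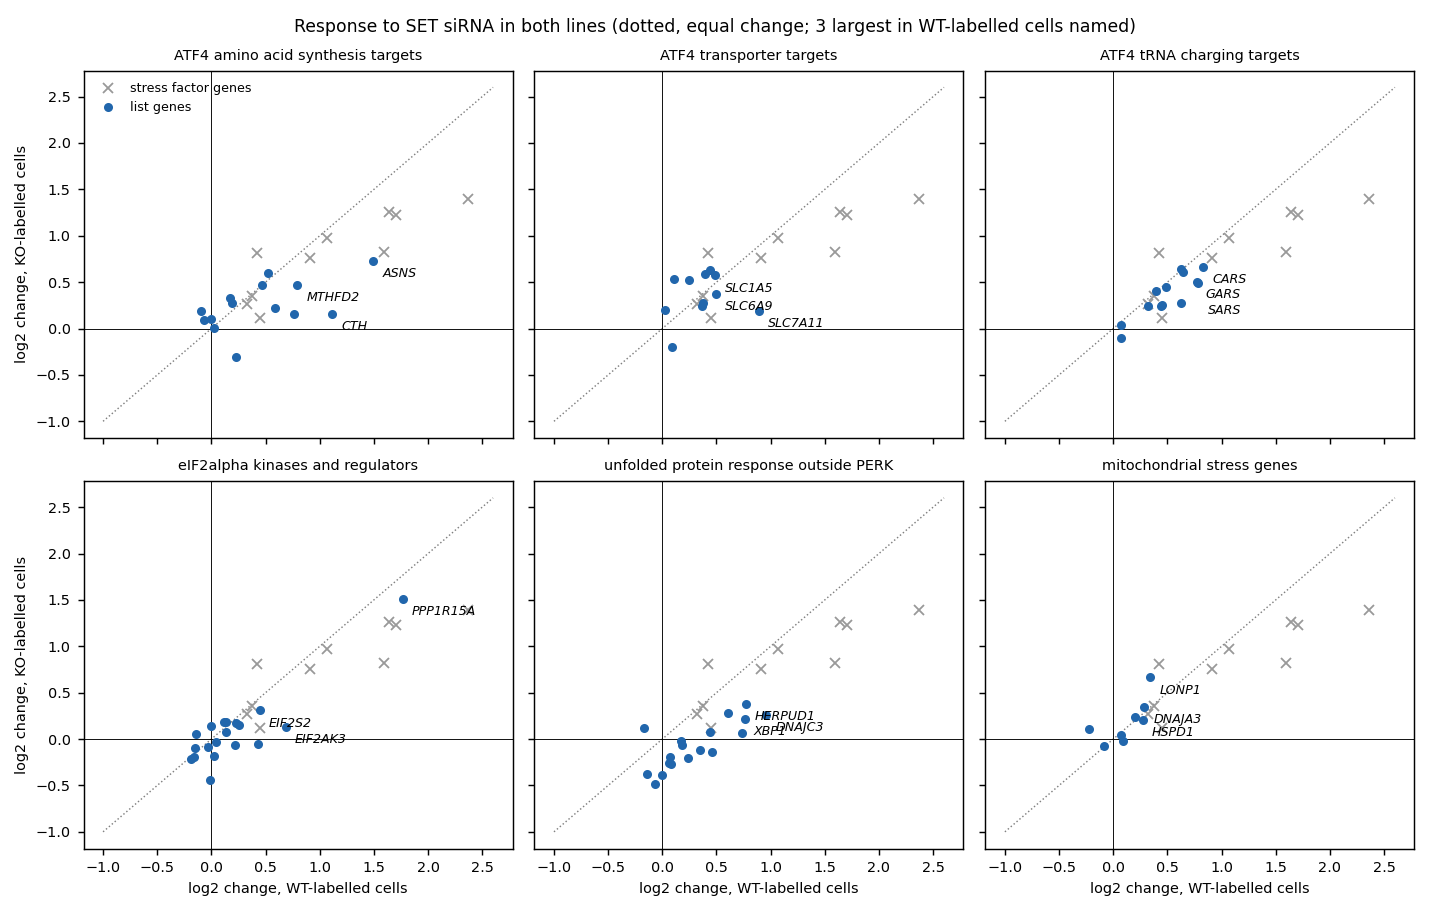
Log2 change with SET siRNA in KO-labelled cells (vertical) and in WT-labelled cells (horizontal) for the genes of 6 pathway lists (blue), with the 10 stress genes as grey crosses and equal change dotted. ASNS (0.73 in KO-labelled against 1.49 in WT-labelled cells), CTH (0.16 against 1.116) and SLC7A11 (0.19 against 0.89) lay well below the dotted line.

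Among 20 other targets of ATF4 and CHOP, SET siRNA raised 13 and lowered 1 in KO-labelled cells, and raised 14 and lowered 2 in WT-labelled cells. Among all tested genes 19.8% were higher and 17.9% lower in KO-labelled cells, and 30.8% higher and 24.0% lower in WT-labelled cells. The response was lower in KO-labelled than in WT-labelled cells for 10 of the 20 and higher for 0, against 10.5% and 8.6% of all tested genes. With 1 library left out the count of 10 moved in both directions, as did the number called over all tested genes. GDF15, a stress cytokine, averaged 15.7 ± 1.60 FPKM with SET siRNA and 4.79 ± 0.823 FPKM with control siRNA in KO-labelled cells, and 193 ± 9.16 and 18.5 ± 2.14 FPKM in WT-labelled cells. SESN2, an inhibitor of mTORC1 signalling, rose in both lines as well, by log2 changes of 1.08 and 1.77. The list also holds known p53 targets, among them GDF15, SESN2 and CDKN1A, so it is not one of ATF4 and CHOP alone. Of 34 bZIP relatives and partners 30 were tested, and SET siRNA raised 12 and lowered 6 in KO-labelled cells and raised 13 and lowered 4 in WT-labelled cells. The KO count of falls was near the 17.9% of all tested genes that fell there. MAFF, a small Maf protein, rose by 1.18 and 1.20, and BACH2, a repressor, by 0.81 and 1.18, while CREB3L1, a membrane-bound factor, fell by 0.78 in KO-labelled cells and by 0.90 in WT-labelled cells on the log2 scale. The number of bZIP rises was 5 without the second KO-labelled SET siRNA library and 7 without the second KO-labelled control library in KO-labelled cells, and 7 without the second control library and 8 without the second SET siRNA library in WT-labelled cells, where 30.8% of all tested genes rose with all libraries, so the count of bZIP rises there is no result about the list.

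Chaperones and other genes of the unfolded protein response outside the PERK branch were described in the same way. In KO-labelled cells 1 of 18 rose and 3 fell, with a median log2 change of -0.09, where 19.8% of all tested genes rose and 17.9% fell. In WT-labelled cells 9 of 18 rose, with a median of 0.21, where 30.8% of all tested genes rose. Within the WT-labelled line 1 library stood apart on this list. The summed FPKM of the 18 genes was 2330, 2393 and 1933 in SET siRNA libraries 1, 2 and 3, against 1891 to 1944 in the control libraries, so the third library lay inside the control range. It was the lowest of the 3 SET siRNA libraries for 18 of these 18 genes, for 3 of the 10 stress genes and for 36.7% of all tested genes. The 10 stress genes summed to 1154, 1182 and 1177 FPKM in the same 3 libraries. Without the third library 12 of the 18 genes rose in WT-labelled cells, and 14 responded less in KO-labelled than in WT-labelled cells. The shares of all tested genes in that fit are not given here. With all libraries 6 of the 18 responded less, where 10.5% of all tested genes did. That count of 6 fell without the second KO-labelled library of either siRNA, and the number called over all tested genes fell in the same fits. DNAJC3 (-0.70, limma adjusted p = 0.0183), DNAJB9 (-0.67, limma adjusted p = 0.0227) and XBP1 (-0.54, limma adjusted p = 0.00754) had the largest differences, and the call of DNAJC3 was lost when any 1 of 3 libraries was left out and that of DNAJB9 when any 1 of 5 was, the second KO-labelled library of either siRNA being among them for both genes. Of 8 mitochondrial stress genes 4 rose in each line and 1 fell in WT-labelled cells. In KO-labelled cells 19.8% of all tested genes rose. The count of rises there was smaller when either KO-labelled SET siRNA library was left out, as was the number called over all tested genes. In WT-labelled cells 30.8% of all tested genes rose and 24.0% fell, and a list of 8 genes is small to set beside those shares. LONP1, a mitochondrial protease, rose by 0.66 in KO-labelled and 0.34 in WT-labelled cells, a difference that was not called (0.32, limma adjusted p = 0.0979).

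**Figure D5:**
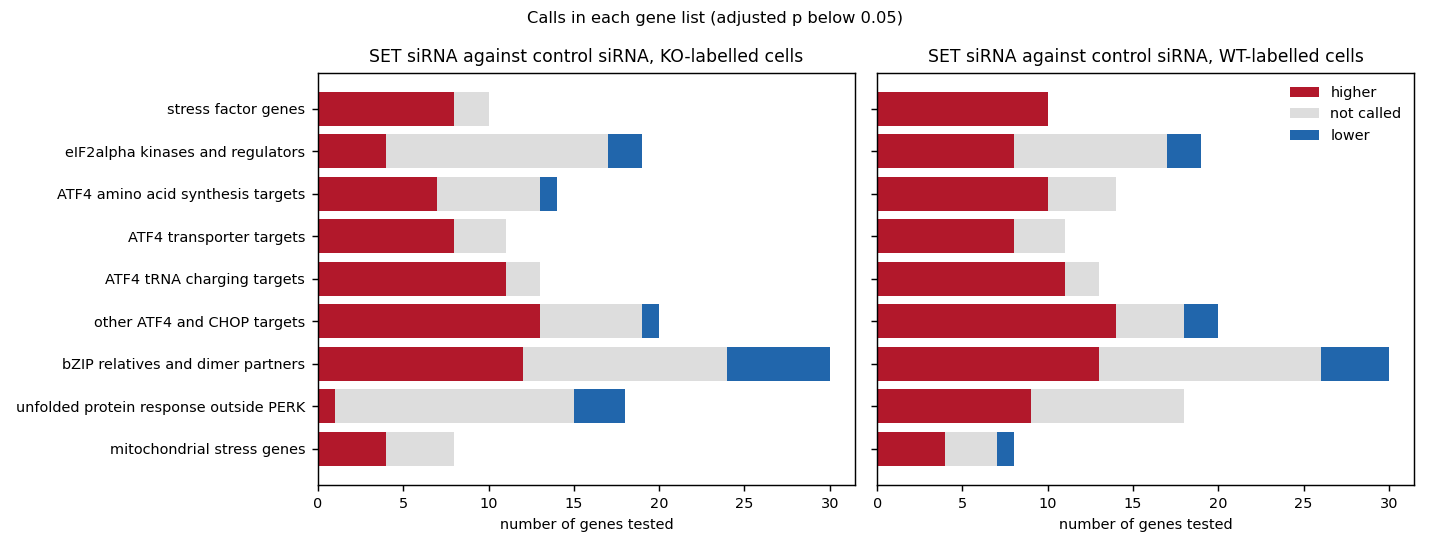
Number of genes called higher (red), called lower (blue) and not called (grey) with SET siRNA in each list, with KO-labelled cells at the left and WT-labelled cells at the right. Calls are limma at an adjusted p below 0.05, and the unfolded protein response list has 1 rise of 18 at the left and 9 of 18 at the right.

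Genes whose profile over the 10 libraries was most like that of DDIT3 or ATF3 were ranked by the root-mean-square difference of centred log2(FPKM + 1), as a description with no test. For DDIT3 the 5 nearest genes outside the list were NLRP1 (0.237), PPP1R15A (0.245), RENBP (0.280), GAS5 (0.284) and EPB41L4A-AS1 (0.296), where the median of all tested genes was 0.814. GAS5, a host of small nucleolar RNAs, averaged 156 FPKM with SET siRNA and 55.7 FPKM with control siRNA in KO-labelled cells, and 151 and 52.9 FPKM in WT-labelled cells. Within the list NUPR1 (0.235), CHAC1 (0.281) and TRIB3 (0.292) lay nearest to DDIT3, and ATF3 (0.726) and FGF21 (0.888) farthest. For ATF3 the nearest were RGS16 (0.215), NOS3 (0.238), SESN2 (0.266), GREB1 (0.276) and MMP3 (0.278), with a median of 1.09 for all tested genes. Of the 10 stress genes NUPR1 was the nearest to ATF3, at 0.516. The 5 named genes were picked as the nearest among all tested genes outside the list, so their smaller values follow largely from that choice. NOS3 averaged 4.04 FPKM with SET siRNA and 0.311 FPKM with control siRNA in KO-labelled cells, levels at which log2(FPKM + 1) understates a change. MMP3, a matrix metalloproteinase, averaged 223 FPKM with SET siRNA and 131 FPKM with control siRNA in KO-labelled cells, and 608 and 152 FPKM in WT-labelled cells.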

How the data were processed

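RNA from 10 libraries was measured by RNA-seq with the TruSeq kit, per the labels' protocols. The submitters' processing notes name bcl2fastq 1.8.4, TopHat2 2.0.4 and Cufflinks 2.0.2. The authors deposited FPKM per gene with an interval and a status, per the file headers. The sources used here give no genome build, annotation, strand or depth. For low genes, 66.5 to 67.8% of the fragment numbers that the intervals imply lay within 0.05 of a whole number, so reads were not recovered and no count test was run. The authors' intervals had a median reach of 7.87 to 9.75% of FPKM on either side.

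Starts were counted from 1. Genes with at least 1 FPKM in at least 2 libraries were tested (14813 tested, 10780 not). limma 3.58.1 in R 4.3.3 fitted log2(FPKM + 1) on 4 groups with a trended prior, and calls had a Benjamini-Hochberg adjusted p below 0.05 over all genes tested. The script was tested on simulated data. Python 3.11.15 with pandas 2.3.3, numpy 2.4.6 and matplotlib 3.10.9 did the rest.

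The members and lists were chosen with earlier results of these data known. Named genes were all 10 members, up to 3 called genes of each list with the largest change per siRNA comparison (for the difference between lines, in the amino acid synthesis, transporter and unfolded protein response lists), 3 label checks, and the 5 genes most like DDIT3 and ATF3. Overlapping MARS and NUP62, COL1A2 and TWIST1 were named after their values were seen, as were the other values of PPP1R15A, EIF2AK3, LONP1 and CREB3L1 in comparisons for which the rule did not pick them. Alternatives were a pseudocount of 0.1, no filter, a mean of at least 5 FPKM, quantile and median-of-ratios scaling, a fit on the compared libraries alone, array weights, an untrended prior, a block on replicate numbers, and each library left out.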

Additional observations from a re-analysis of the deposited data

Results flagged for a closer look

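Among the genes named for it, 13 had responses to SET siRNA that differed between the lines by the limma interaction term (adjusted p below 0.05), given as KO-labelled minus WT-labelled log2 change. Among the 10 stress genes the values were -0.969 for ATF3, -0.772 for CHAC1, -0.481 for NUPR1, -0.382 for DDIT3 and 0.393 for ATF5. Among amino acid synthesis genes they were -0.961 for CTH, -0.763 for ASNS and -0.604 for ALDH1L2. Among transporters they were -0.705 for SLC7A11 and 0.43 for SLC7A5. In the unfolded protein response list they were -0.701 for DNAJC3, -0.667 for DNAJB9 and -0.543 for XBP1. Further genes of the lists were called too, making 6 of 14 amino acid synthesis genes, 6 of 18 in the unfolded protein response list and 10 of 20 other targets, among them GDF15 (-1.79), CDKN1A (-0.74) and SESN2 (-0.69). Of all tested genes 19.1% were called for this difference, 10.5% lower and 8.6% higher. As given above, the calls of ATF5, DDIT3, SLC7A5, DNAJC3 and DNAJB9 did not hold with every library left out in turn. Nor did the count of 6 of 18. Groups of 2 and 3 libraries are too small for a test of single outlying libraries.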

How the results depend on the processing

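Of 2099 repeats of 112 gene results, 2014 kept their direction and side of the threshold, and 90 results did so under every alternative run. Genes called for the difference between lines numbered 1143 to 4589 with 1 library left out, against 2831, and members called 3 to 5, against 5. The count of 3 came without the second KO-labelled control library or either KO-labelled SET siRNA library. Genes called with SET siRNA in KO-labelled cells numbered 3463 to 5832 with 1 library left out and 3202 in the fit on the compared libraries alone, against 5571. The cause was not tested. A group left with 1 library was assumed to vary like the other groups.

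The directions that turned were of changes not called. The difference between lines for CEBPB was 0.0002487 under median-of-ratios scaling and ranged between -0.1526 and 0.113 with 1 library left out. It was above 0 without the second (0.01459) or the third (0.04872) WT-labelled control library, the third WT-labelled SET siRNA library (0.03776), the first KO-labelled control library (0.113) or the first KO-labelled SET siRNA library (0.02779). With 1 library left out, that for CEBPG ranged between -0.1665 and 0.05302, and the FGF21 change in KO-labelled cells between -0.002978 and 0.2393. Between lines, ATF4 with SET siRNA was -0.03817 under quantile normalization and between -0.0199 and 0.07088 with 1 library left out, and ATF5 with control siRNA was between -0.1687 and 0.06733. CEBPG and ATF5 turned without the second KO-labelled control library, and FGF21 and ATF4 without the second KO-labelled SET siRNA library.

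Same-numbered libraries of different groups had residual correlations of -0.083 to 0.228 (13 pairs, median 0.036). Those with different numbers had -0.228 to 0.151 (24 pairs, median -0.015). The residuals of a group of 2 mirror each other, so these values cannot decide whether the numbers pair the samples. With a replicate block 3400 genes were called for the difference between lines, 6027 and 8472 with SET siRNA in KO-labelled and WT-labelled cells, and 7233 and 7189 between lines with SET and control siRNA. Members called were 5, 8, 10, 7 and 8. Depth is not known, and groups of 2 limit the KO-labelled comparisons.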
